A study of Homo sapiens with 24 samples.

Results

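A pair of lines of HGC27 cells that carry the same labelled knockout were compared for their response to a change of serum. HGC27 is an established human gastric carcinoma cell line, labelled as epithelial stomach cells. Each knockout line, SG12 and SG21, was labelled as lacking TMEM97 and was grown for 3 days in high glucose DMEM with LPDS or with FBS. The labels do not spell out these media, which usually stand for lipoprotein-deficient serum and fetal bovine serum. The quantity described is the response difference, which is the log2 change of LPDS against FBS in SG12 minus the same change in SG21. It rests on 12 of the 24 RNA libraries of the series, 3 replicates in each of 4 groups: SG12 in LPDS, SG12 in FBS, SG21 in LPDS and SG21 in FBS. All 4 groups carry the TMEM97 knockout, so a positive response difference means a more positive response of one knockout line than of the other, and no wild-type cell enters it. The labels do not say whether a line is 1 clone or a pool of edited cells. The replicates are called independent biological samples and nothing tells what each was grown or handled apart from, so each p-value reflects the spread among these libraries only.

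TMEM97, the sigma-2 receptor, is a membrane protein of the endoplasmic reticulum and lysosome that binds NPC1, the protein that carries cholesterol out of the lysosome. Cells without lipoprotein cholesterol release SREBP transcription factors from the endoplasmic reticulum membrane, and these switch on the genes that make and import cholesterol. Cells short of an amino acid use another programme, the integrated stress response, in which ATF4 switches on amino acid transporters, folate enzymes and the enzymes that charge tRNAs. Both programmes were measured here as RNA, and bulk RNA cannot tell fewer cells of a type from less RNA per cell.

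The kit keeps strand, and most reads were counted under the name of whatever gene lies on the other strand. GAPDH, an abundant glycolytic enzyme, had a mean of 55.6 CPM (counts per M counted reads, scaled by TMM) under its own name, and VIM, the filament protein vimentin, had 77.6 CPM under its own name against 20905 CPM under its antisense entry VIM-AS1. Each value below is therefore given for the source gene, the gene whose exons overlap the counted entry on the opposite strand, and the counted entry is named where it is a known gene. Such an overlap covers a part of the source gene, and no level is compared from gene to gene below, and some reads may belong to the overlapping neighbour. A source could be used for 2885 protein-coding genes. The depth on genes was 2.53 to 3.96 M reads a library, from 46.0 to 74.6 M reads with a unique alignment. SG12 FBS replicate 3 and SG21 LPDS replicate 1 stood apart from the other libraries of their groups: the chi-square statistic per degree of freedom between replicates was 12.1 and 14.7 in the pairs that hold the first and 9.36 and 11 in those that hold the second, against 2.9 to 4.1 in the other 8 pairs. Reads that fit more than 1 gene were 2.15% and 2.18% of those on genes in SG21 LPDS replicates 2 and 3, against 2.58% to 3.15% for the remaining 10 libraries. Results are given with all 12 libraries and, where the call or size changes, with SG21 LPDS as replicate 1 alone. That second fit leaves 1 library in the group, the one that stood apart, and takes its spread from the other groups. A call lost in it is therefore no evidence that a response is absent. Of the 8 genes listed as epithelial markers none had a usable entry, so the epithelial label could not be checked, nor could the fibroblast, leukocyte and gastric marker lists. Of 9 mesenchymal markers 6 were read, and VIM averaged 30800 CPM in SG12 LPDS, 24000 CPM in SG12 FBS, 14300 CPM in SG21 LPDS and 14600 CPM in SG21 FBS.

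Stretches of 4 promoters show where genes described below hold letters of the sites that these programmes use. They are from RefSeq (GRCh38.p14), each 30 bases long, 5′ to 3′ on the strand of the gene, with the matched letters in capitals. The SREBF2 window, at chr22:41832962-41832991 on the plus strand, holds a sterol regulatory element (TCACNCCAC), the site that SREBP factors bind. The HMGCS1 window, at chr5:43313495-43313524 on the minus strand, and the LSS window, at chr21:46228907-46228936 on the minus strand, hold the complement of a CCAAT box, the site of the factor NF-Y, which often works beside SREBP. The SLC1A5 window, at chr19:46784893-46784922 on the minus strand, holds an amino acid response element (TGATGNAA), a site of ATF4. This window lies inside the gene, before one of the later starts that RefSeq lists, and not before the first start. The HMGCS1 window crosses the outer end of that gene (chr5:43289395-43313512), and its matched letters lie within the gene.
SREBF2: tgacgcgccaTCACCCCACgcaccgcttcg
HMGCS1: ctaccggccgcgATTGGctgtgggagccac
LSS: cgcggcgctctgATTGGttgcgtgggcgtc
SLC1A5: gaggaagtggcTGATGCAAgctgtccaggg
The search covered both strands of the 250 bases before the start in 35116 promoters. These letters were found in 0.883% (sterol regulatory element), 32% (CCAAT box) and 3.14% (amino acid response element) of them. Counted per gene over 27305 genes, the shares were 1.09%, 37% and 3.89%. The sterol regulatory element lay in 0 of 3 measured cholesterol synthesis genes with a promoter on file and in 1 of 6 sterol uptake genes, SREBF2. CCAAT letters lay in 3 of those 3 cholesterol synthesis genes (HMGCS1, IDI1 and LSS), in 2 of 6 sterol uptake genes (SREBF2 and TMEM97), in 3 of 6 integrated stress response genes and in 4 of 5 tRNA charging genes (AIMP1, AIMP2, CARS1 and WARS1). The amino acid response element lay in 1 of 6 integrated stress response genes, SLC1A5, and in 0 of 5 tRNA charging genes. A match of letters is a description of the window and shows no binding.

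Across 11146 tested entries, the LPDS response differed between the lines in 1646 (14.8%; edgeR quasi-likelihood F test, Benjamini-Hochberg adjusted p under 0.05), with 825 more positive in SG12 (7.4%) and 821 more negative (7.37%). The count with SG21 LPDS as replicate 1 alone was 1026 (9.21%), of which 846 were among the 1646 and in the same direction. LPDS changed 2806 entries in SG12 (25.2%; 1413 higher, 12.7%, and 1393 lower, 12.5%) and 460 in SG21 (4.13%; 232 higher, 2.08%, and 228 lower, 2.05%). The SG21 count ranged between 182 and 1000 when 1 library was left out, without SG21 LPDS replicate 2 and without SG21 LPDS replicate 1. Among the 2885 protein-coding source genes, the response difference was called for 634 (22%), 262 more positive (9.08%) and 372 more negative (12.9%). The SG12 response was called for 977 of these genes (33.9%; 417 higher, 14.5%, and 560 lower, 19.4%), and the SG21 response for 170 (5.89%; 97 higher, 3.36%, and 73 lower, 2.53%). The SD of the log2 response over these genes was 0.582 in SG12 and 0.354 in SG21. The median response difference was −0.05 over these genes and 0.04 over all entries.

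Some entries responded in both lines. For comparison, the SG12 response was called for 25.2% of all entries, 12.7% higher and 12.5% lower. In the same direction there were 148 (1.33%), which is 5.27% of the SG12 calls and 32.2% of the SG21 calls. In opposite directions there were 94 (0.843%), which is 3.35% of the SG12 calls and 20.4% of the SG21 calls, 47 lower in SG12 and higher in SG21 and 47 the other way. When SG21 LPDS was replicate 1 alone, 51 entries were called in the same direction and 17 in opposite directions. Across the 2885 source genes the responses of the lines, which share no library, had a Pearson correlation of 0.102, and genes are not independent replicates.

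**Figure D1:**
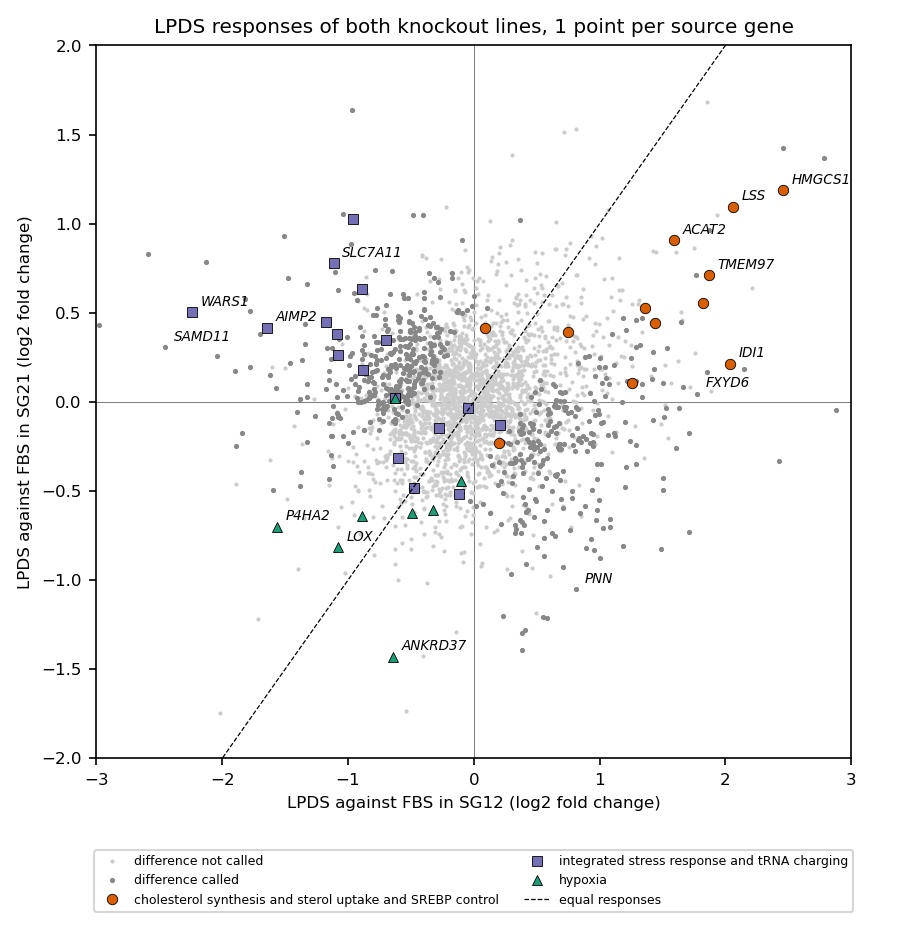
LPDS response in SG12 (horizontal axis, log2 fold change against FBS) and in SG21 (vertical axis) for protein-coding source genes, 2881 of 2885 shown within the axes, with listed genes coloured and the dashed line marking equal responses. Sterol genes such as HMGCS1 lie to the right of the line with both responses positive, WARS1, AIMP2 and SLC7A11 lie in the upper left with opposite responses, and most hypoxia genes lie in the lower left with both responses negative.

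The lines also differed within each medium, in cultures kept 3 days in FBS or in LPDS. In FBS, SG12 and SG21 differed in 3485 entries (31.3%; 1712 higher in SG12, 15.4%, and 1773 lower, 15.9%), and in LPDS in 2337 entries (21%; 1145 higher, 10.3%, and 1192 lower, 10.7%). Among source genes these counts were 1253 in FBS (43.4%; 631 higher, 21.9%, and 622 lower, 21.6%) and 982 in LPDS (34%; 395 higher, 13.7%, and 587 lower, 20.3%). The LPDS count over all entries was 1244 when SG21 LPDS was replicate 1 alone. A response difference is the line difference in LPDS minus the line difference in FBS, so both are given below for the genes it turns on.

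The targeted gene itself differed in response. TMEM97 (chr17:28319095-28328685, plus strand) was read through 361 bases that its exons share with the IFT20 entry. It had 212, 190 and 181 CPM in SG12 LPDS libraries against 58.9, 50.7 and 50.5 CPM in SG12 FBS libraries, and 119, 121 and 131 CPM in SG21 LPDS libraries against 75.8, 73.0 and 77.6 CPM in SG21 FBS libraries. Every LPDS library was above every FBS library in both lines, and the SG12 libraries were the highest in LPDS and the lowest in FBS. The response was 1.87 in SG12 and 0.71 in SG21 on the log2 scale, a response difference of 1.15 ± 0.18 (SE; edgeR adjusted p = 6.42e-05). In a scaling over all 24 libraries, TMEM97 averaged 194 ± 15.3, 53.5 ± 4.49, 123 ± 5.34 and 75.1 ± 2.32 CPM in these 4 groups, and wild-type SGCTRL cells averaged 162 ± 9.51 CPM in LPDS and 131 ± 11.7 CPM in FBS (SD, n = 3). RNA was thus counted over the 3′ end of TMEM97 in the lines labelled as its knockouts, and a read outside an edited site does not check the edit. IFT20, the ciliary transport protein on the other strand, is read through the TMEM97 entry over the same bases and had a response difference of −0.51 ± 0.21 that did not pass (edgeR adjusted p = 0.108), and was −0.67 without SG21 FBS replicate 1 (edgeR adjusted p = 0.0457).

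Most measured cholesterol synthesis genes rose with LPDS in both lines, and rose more in SG12. Of 21 listed genes 6 could be read. LPDS raised 5 of these in SG12 and 4 in SG21, and the response difference was positive and called for 5 of 6, with a list median of 1.12 beside −0.05 for all source genes. Over all source genes LPDS raised 14.5% in SG12 and 3.36% in SG21, and 9.08% had a called positive difference. HMGCS1 (chr5:43289395-43313512, minus strand) makes HMG-CoA at the entry to the pathway. It had 2477, 2803 and 2781 CPM in SG12 LPDS libraries against 448, 457 and 559 CPM in SG12 FBS libraries, and 2497, 2907 and 2922 CPM in SG21 LPDS libraries against 1248, 1132 and 1277 CPM in SG21 FBS libraries. The LPDS libraries of the lines overlapped, and the SG12 FBS libraries lay below all SG21 FBS libraries. Its response was 2.46 in SG12 and 1.19 in SG21, a response difference of 1.27 ± 0.14 (edgeR adjusted p = 3.84e-07). The line difference of HMGCS1 was −1.32 in FBS (edgeR adjusted p = 4.76e-11) and −0.05 in LPDS (edgeR adjusted p = 0.802).

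LSS (chr21:46188141-46228824, minus strand), which closes the sterol rings as lanosterol synthase, had the same order. It had 679, 782 and 811 CPM in SG12 LPDS libraries against 188, 184 and 172 CPM in SG12 FBS libraries, and 597, 765 and 783 CPM in SG21 LPDS libraries against 332, 318 and 354 CPM in SG21 FBS libraries. Again the lines overlapped in LPDS and were apart in FBS. The response difference was 0.97 ± 0.16 (edgeR adjusted p = 0.000113).

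IDI1 (chr10:1039152-1049170, minus strand), the isomerase of the isoprenoid units, had 640, 600 and 694 CPM in SG12 LPDS libraries against 119, 178 and 173 CPM in SG12 FBS libraries. In SG21 it had 482, 242 and 230 CPM in LPDS libraries against 273, 264 and 285 CPM in FBS libraries. Replicate 1 of SG21 LPDS was above all SG21 FBS libraries, and replicates 2 and 3 were below them. The response difference was 1.82 ± 0.26 (edgeR adjusted p = 1.72e-05), and 1.21 with replicate 1 alone (edgeR adjusted p = 0.000185). ACAT2 (chr6:159760328-159779055, plus strand), which joins acetyl groups in the cytosol, was read through the TCP1 entry and rose by 1.59 in SG12 and by 0.91 in SG21. Its response difference of 0.68 ± 0.16 (edgeR adjusted p = 0.00348) became 0.47 with SG21 LPDS as replicate 1 alone and did not pass (edgeR adjusted p = 0.074). FDFT1, squalene synthase, had 25.9 to 32.04 CPM in SG12 LPDS, 22.7 to 30.3 CPM in SG12 FBS, 24.7 to 28.1 CPM in SG21 LPDS and 27.7 to 37.5 CPM in SG21 FBS, and its difference of 0.43 ± 0.28 did not pass (edgeR adjusted p = 0.332).

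**Figure D2:**
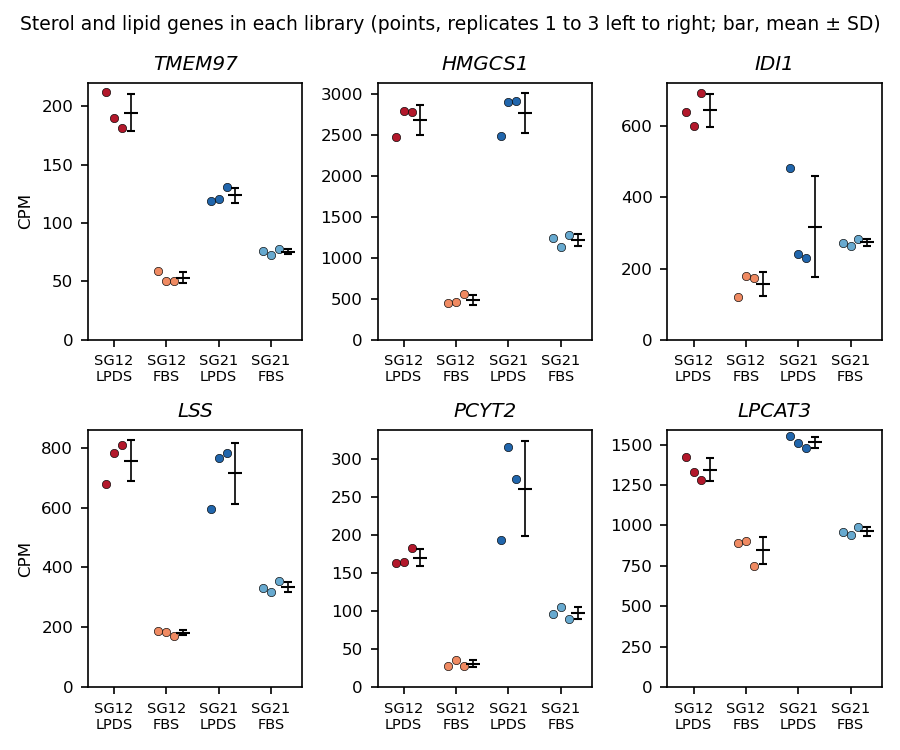
CPM of 6 sterol and lipid genes in each of the 12 libraries (points, replicates 1 to 3 from left to right) with the group mean and SD (bar), from SG12 LPDS at the left to SG21 FBS at the right. HMGCS1 and LSS reach similar levels in LPDS in both lines and are lower in SG12 in FBS, whereas the LPCAT3 responses are 0.67 in SG12 and 0.65 in SG21.

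Some receptors and regulators of sterol uptake also rose more in SG12. Of 20 listed genes 7 could be read. LPDS raised 5 and lowered 1 (VLDLR) in SG12 and raised 2 in SG21. A positive response difference was called for 4, among them LRP8, TMEM97 and SREBF1, and a negative one for none, with a median of 0.84. Those shares were 9.08% and 12.9% over all source genes. LRP8, a receptor for apolipoprotein E, rose in SG12 (81.4, 93.4 and 87.7 CPM in LPDS against 37.4, 33.2 and 39.2 CPM in FBS). In SG21, where LRP8 had 133, 150 and 140 CPM in LPDS and 137, 130 and 126 CPM in FBS, the groups overlapped. Its response difference was 1.15 ± 0.19 (edgeR adjusted p = 9.92e-05). SREBF1, which encodes an SREBP factor, was read through the RAI1 entry and was called narrowly (0.84 ± 0.28, edgeR adjusted p = 0.0456). The call of SREBF1 was lost when any of 8 of the 12 libraries was left out, with differences of 0.67 to 0.89.

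SREBF2, NPC1 and VLDLR did not pass. SREBF2 (chr22:41833079-41907308, plus strand), the SREBP factor of the cholesterol genes, had 486, 609 and 617 CPM in SG12 LPDS libraries against 378, 344 and 294 CPM in SG12 FBS libraries, and 577, 817 and 738 CPM in SG21 LPDS libraries against 541, 549 and 534 CPM in SG21 FBS libraries. Its difference was 0.36 ± 0.17 (edgeR adjusted p = 0.173) and 0.65 with SG21 LPDS as replicate 1 alone (edgeR adjusted p = 0.019). NPC1, the binding partner of TMEM97, was read through the RMC1 entry and had a difference of −0.33 ± 0.23 (edgeR adjusted p = 0.352). It was higher in SG12 than in SG21 in FBS, by 1.06 (edgeR adjusted p = 8.7e-06), and in LPDS, by 0.73 (edgeR adjusted p = 0.00119). VLDLR, a lipoprotein receptor that is also an ATF4 target, had a difference of 0.01 ± 0.21 (edgeR adjusted p = 0.981).

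Fatty acid and phospholipid genes moved less uniformly. Of 11 measured members 2 had a called positive difference and 2 a negative one, with a median of −0.03. Among all source genes 9.08% were called positive and 12.9% negative. PCYT2, which makes the activated ethanolamine of phospholipid synthesis, was read through the NPB entry. It had 163, 165 and 184 CPM in SG12 LPDS libraries against 28.6, 36.2 and 27.9 CPM in SG12 FBS libraries, and 194, 316 and 275 CPM in SG21 LPDS libraries against 96.3, 106 and 90.2 CPM in SG21 FBS libraries. LPDS libraries were higher in each line, and SG12 was lower than SG21 in both media. The response was 2.46 in SG12 and 1.43 in SG21, a difference of 1.03 ± 0.22 (edgeR adjusted p = 0.00174). DGAT2, which makes triglyceride, went the other way, with 82.9, 97.7 and 89.7 CPM in SG12 LPDS libraries against 167, 155 and 128 CPM in SG12 FBS libraries. In SG21, DGAT2 had 106, 169 and 126 CPM in LPDS and 98.4, 112 and 118 CPM in FBS, which overlap, and its difference was −1.03 ± 0.21 (edgeR adjusted p = 0.00133). ACLY, the enzyme that supplies cytosolic acetyl-CoA, rose in both lines and its difference of 0.34 ± 0.15 did not pass (edgeR adjusted p = 0.117), and was 0.46 without SG21 FBS replicate 2 (edgeR adjusted p = 0.0312). LPCAT3, a phospholipid remodelling enzyme read through the EMG1 entry, had 1424, 1329 and 1282 CPM in SG12 LPDS libraries against 889, 902 and 751 CPM in SG12 FBS libraries, and 1550, 1511 and 1480 CPM in SG21 LPDS libraries against 960, 940 and 992 CPM in SG21 FBS libraries. Its responses of 0.67 and 0.65 left a difference of 0.02 ± 0.13 (edgeR adjusted p = 0.955). PLIN3, a lipid droplet coat protein, rose by 1.01 in SG12 and had a response difference of 0.76 ± 0.19 (edgeR adjusted p = 0.00616).

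Genes of the integrated stress response fell with LPDS in SG12, and none of those measured was called lower in SG21. Of 33 genes listed for the integrated stress response 10 could be read, and the response difference was called negative for 8 and positive for none, with a median of −1.41. For all source genes the shares called negative and positive were 12.9% and 9.08%. LPDS lowered 9 of the 10 in SG12 and raised 4 in SG21, which were SLC7A11, SLC7A5, SLC1A5 and CEBPB. Of these 4 only SLC7A11 was called higher in SG21 with SG21 LPDS as replicate 1 alone, and the SG21 response of CEBPB, 1.02 with all libraries, was then −0.18 (edgeR adjusted p = 0.89). SLC7A11 (chr4:138164097-138242349, minus strand), the cystine importer, had 226, 214 and 189 CPM in SG12 LPDS libraries against 460, 445 and 457 CPM in SG12 FBS libraries. In SG21 it had 341, 347 and 381 CPM in LPDS libraries against 220, 199 and 206 CPM in FBS libraries. The groups were apart in each line and in opposite order, so that SG12 had the higher level in FBS and the lower level in LPDS. The responses were −1.11 and 0.78, a response difference of −1.89 ± 0.15 (edgeR adjusted p = 1.23e-09). With SG21 LPDS as replicate 1 alone SLC7A11 kept a called rise in SG21, of 0.72 (edgeR adjusted p = 0.00382).

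SLC7A5 (chr16:87830023-87869488, minus strand), a leucine importer, had 554, 522 and 505 CPM in SG12 LPDS libraries against 1237, 1290 and 1047 CPM in SG12 FBS libraries, and 1058, 1529 and 1446 CPM in SG21 LPDS libraries against 920, 904 and 1127 CPM in SG21 FBS libraries. The SG12 groups were apart and the SG21 groups overlapped. SLC1A5 (chr19:46774883-46788594, minus strand), the glutamine importer, had 934, 863 and 796 CPM in SG12 LPDS libraries against 1783, 1681 and 1336 CPM in SG12 FBS libraries, and 1595, 2369 and 2129 CPM in SG21 LPDS libraries against 1272, 1311 and 1341 CPM in SG21 FBS libraries. Here the groups were apart in both lines, in opposite order. The response differences were −1.63 ± 0.17 for SLC7A5 (edgeR adjusted p = 1.32e-07) and −1.52 ± 0.17 for SLC1A5 (edgeR adjusted p = 3.64e-07). In SG21 LPDS, replicates 2 and 3 were higher than replicate 1 for both transporters, and with replicate 1 alone their SG21 responses of 0.11 and 0.29 did not pass (edgeR adjusted p = 0.821 and 0.36). SLC6A9, a glycine transporter read through the CCDC24 entry, had a response difference of −1.05 ± 0.19 (edgeR adjusted p = 0.000368). CEBPB, a transcription factor of the same programme, had 20.1, 15.1 and 23.3 CPM in SG12 LPDS libraries against 53.6, 29.9 and 30.3 CPM in SG12 FBS libraries, and 23.5, 84.1 and 54.4 CPM in SG21 LPDS libraries against 25.9, 31.3 and 23.0 CPM in SG21 FBS libraries. Its difference of −1.98 ± 0.42 (edgeR adjusted p = 0.00175) fell short of a call with replicate 1 alone (−0.78, edgeR adjusted p = 0.248).

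A pair of mitochondrial folate enzymes followed the transporters. MTHFD2 (chr2:74198562-74217565, plus strand) had 1505, 1562 and 1391 CPM in SG12 LPDS libraries against 3314, 3316 and 2782 CPM in SG12 FBS libraries, and 2224, 2445 and 2307 CPM in SG21 LPDS libraries against 1934, 1809 and 2063 CPM in SG21 FBS libraries. SG12 was higher than SG21 in FBS and lower in LPDS, with no overlap in either medium. Its response difference was −1.34 ± 0.13 (edgeR adjusted p = 4.42e-08). ALDH1L2, which oxidises formyl folate in mitochondria, had a difference of −1.47 ± 0.24 (edgeR adjusted p = 9.92e-05). SHMT2, the mitochondrial serine hydroxymethyltransferase, had a difference of −0.13 ± 0.16 (edgeR adjusted p = 0.613), and in the serine and folate list as a whole 3 of 7 genes were called negative and none positive. The share called negative over all source genes was 12.9%. PYCR1, a proline synthesis enzyme named outside the lists after its values were seen, was called lower in SG12 and higher in SG21 and had a difference of −1.05 ± 0.17 (edgeR adjusted p = 0.00011). With replicate 1 alone its SG21 response of 0.45 became 0.10 and was not called (edgeR adjusted p = 0.843), and its difference was −0.70 (edgeR adjusted p = 0.00447).

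Of 7 measured tRNA charging genes, 3 had a called negative response difference (WARS1, AIMP2 and MARS1) and none a positive one, with a median of −0.29. A negative difference was called for 12.9% of all source genes. WARS1 (chr14:100333788-100376805, minus strand), which charges tryptophan tRNA, had 283, 272 and 239 CPM in SG12 LPDS libraries against 1316, 1315 and 1121 CPM in SG12 FBS libraries. In SG21 it had 470, 494 and 471 CPM in LPDS libraries against 364, 300 and 349 CPM in FBS libraries. SG12 FBS libraries stood above all 9 others and SG12 LPDS libraries below them. The responses were −2.24 in SG12 and 0.50 in SG21, a difference of −2.74 ± 0.15 (edgeR adjusted p = 2.01e-13). In the scaling over 24 libraries, WARS1 averaged 540 ± 40.2 CPM in SGCTRL LPDS and 419 ± 5.23 CPM in SGCTRL FBS, and 495 ± 3.65 CPM in parental LPDS and 382 ± 28.9 CPM in parental FBS (SD, n = 3). On that scale SG12 averaged 264 ± 21.5 CPM in LPDS and 1254 ± 106 CPM in FBS, so the means of the 4 wild-type groups lay between those of SG12.

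AIMP2 (chr7:6009245-6023834, plus strand), a scaffold of the tRNA synthetase complex read through the EIF2AK1 entry, had 1173, 1095 and 961 CPM in SG12 LPDS libraries against 3630, 3437 and 3021 CPM in SG12 FBS libraries. In SG21, AIMP2 had 1780, 1967 and 1824 CPM in LPDS libraries against 1457, 1285 and 1433 CPM in FBS libraries. Its groups too were apart in each line and in opposite order, with a difference of −2.06 ± 0.14 (edgeR adjusted p = 1.64e-11). MARS1, the methionine tRNA synthetase, had a difference of −1.06 ± 0.17 (edgeR adjusted p = 9.92e-05) and was read through the entry of DDIT3, itself a stress response gene on the other strand. With SG21 LPDS as replicate 1 alone, the rise in SG21 was 0.48 for WARS1 (edgeR adjusted p = 0.0877) and 0.36 for AIMP2 (edgeR adjusted p = 0.18), and both response differences stayed called at −2.73 and −2.01.

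**Figure D3:**
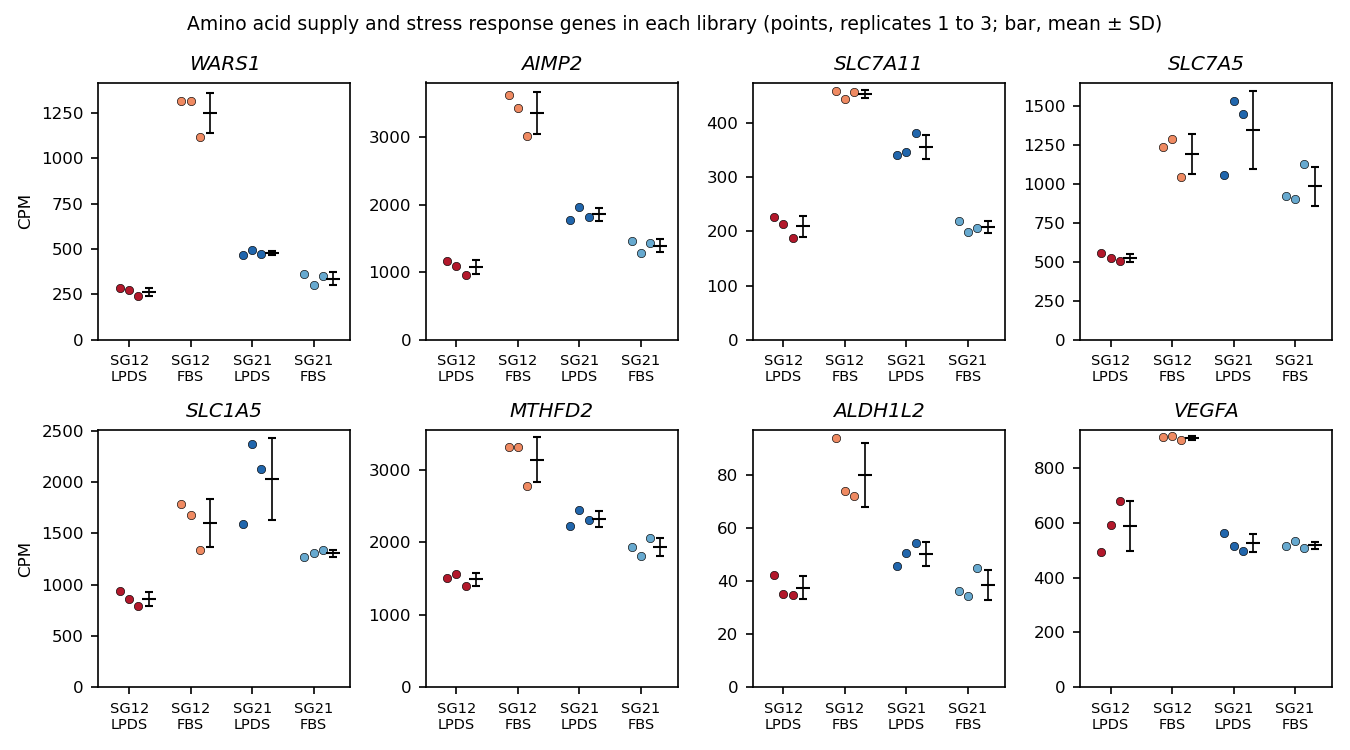
CPM of 8 amino acid supply and stress response genes in each of the 12 libraries (points) with the group mean and SD (bar), from SG12 LPDS at the left to SG21 FBS at the right. WARS1 and AIMP2 are highest in SG12 FBS and lowest in SG12 LPDS, and the SG21 LPDS libraries of SLC7A5 and SLC1A5 spread widely, with replicate 1 below replicates 2 and 3.

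Hypoxia genes moved down, where they were called, in both lines. Of 8 measured members LPDS lowered 5 in SG12 and 7 in SG21 and raised none, and the response difference was called for 3, with a median of −0.06. Over all source genes LPDS lowered 19.4% in SG12 and 2.53% in SG21, and the difference was called for 22%. The 3 not called in SG12 were ERO1A, an oxidase of the endoplasmic reticulum (−0.10), LOXL2, a relative of LOX (−0.32), and PDK1, which restrains pyruvate dehydrogenase (−0.49; edgeR adjusted p = 0.572, 0.0542 and 0.0604). With SG21 LPDS as replicate 1 alone LPDS lowered 4 in SG21 (ANKRD37, LOX, LOXL2 and P4HA2), and ERO1A, PDK1 and MXI1, a MYC antagonist, were not called (edgeR adjusted p = 0.308, 0.403 and 0.235). LOX, which crosslinks collagen and was read through the SRFBP1 entry, had 284, 349 and 308 CPM in SG12 LPDS libraries against 690, 686 and 612 CPM in SG12 FBS libraries, and 328, 325 and 306 CPM in SG21 LPDS libraries against 597, 512 and 578 CPM in SG21 FBS libraries. Both lines fell, by 1.08 in SG12 and by 0.81 in SG21, and the difference of −0.27 ± 0.15 did not pass (edgeR adjusted p = 0.249). P4HA2, a collagen prolyl hydroxylase, had 123, 150 and 112 CPM in SG12 LPDS libraries against 389, 382 and 367 CPM in SG12 FBS libraries, and 117, 121 and 113 CPM in SG21 LPDS libraries against 189, 190 and 191 CPM in SG21 FBS libraries. The lines met in LPDS and were apart in FBS, giving a difference of −0.86 ± 0.17 (edgeR adjusted p = 0.000643). ANKRD37, a hypoxia-induced ankyrin protein read through the UFSP2 entry, fell by 0.64 in SG12 and by 1.43 in SG21, a difference of 0.79 ± 0.21 (edgeR adjusted p = 0.0123). VEGFA, the vascular growth factor that both the hypoxia and the stress response list hold, fell by 0.63 in SG12 and had a response of 0.02 in SG21, with a difference of −0.65 ± 0.15 (edgeR adjusted p = 0.00372). ALDOC, a glycolytic aldolase, moved in opposite directions, by 0.42 in SG12 and −0.62 in SG21 (difference 1.04 ± 0.15, edgeR adjusted p = 3.05e-05).

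Most measured genome maintenance genes were lower in SG12 than in SG21 in both media, and some repair genes were less so in LPDS. Among 9 replication genes, 9 were called lower in SG12 in LPDS (median line difference −0.97) and 7 in FBS (−0.82). Among 8 repair genes, 7 were called lower in LPDS (median −0.68) and 7 in FBS (median −1.0). Among all source genes 20.3% were called lower in SG12 in LPDS and 21.6% in FBS. The response difference was called positive for 2 and negative for 2 replication genes, and positive for 4 repair genes and negative for none. Over all source genes it was called positive for 9.08% and negative for 12.9%. When SG21 LPDS was replicate 1 alone, 2 repair genes were called, RAD54L and FANCA, and CLSPN, a checkpoint adaptor, and MSH6, of mismatch repair, were not (edgeR adjusted p = 0.249 and 0.176). MCM2 (chr3:127598223-127622436, plus strand), a subunit of the replicative helicase, had 422, 349 and 332 CPM in SG12 LPDS libraries against 158, 143 and 136 CPM in SG12 FBS libraries, and 892, 1172 and 1063 CPM in SG21 LPDS libraries against 789, 738 and 733 CPM in SG21 FBS libraries. SG12 stayed below SG21 in both media. The responses were 1.33 in SG12 and 0.47 in SG21 (0.25 and not called with replicate 1 alone, edgeR adjusted p = 0.494), a difference of 0.87 ± 0.16 (edgeR adjusted p = 0.000535). LIG1, the replicative DNA ligase, had a difference of 0.82 ± 0.22 (edgeR adjusted p = 0.0111), and GINS4, a helicase cofactor, had −0.69 ± 0.15 (edgeR adjusted p = 0.00187). RAD54L, a recombination motor read through the LRRC41 entry, and FANCA, of the crosslink repair complex read through ZNF276, had differences of 1.07 ± 0.18 (edgeR adjusted p = 0.000173) and 1.00 ± 0.18 (edgeR adjusted p = 0.000411). Of the p53 target list, TP53I3 and MDM2 were called negative among 4 measured, at −1.05 ± 0.19 and −0.64 ± 0.17.

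Several growth and guidance genes that were high in SG12 in FBS fell there with LPDS. Of 10 measured genes on that list 5 had a called negative difference and 1 a positive one, with a median of −0.67, and 6 were higher in SG12 than in SG21 in FBS. The shares over all source genes were 12.9%, 9.08% and 21.9%. NKD1, an inhibitor and target of Wnt signalling, had 281, 339 and 364 CPM in SG12 LPDS libraries against 752, 814 and 524 CPM in SG12 FBS libraries. In SG21 its levels were 89.6, 90.5 and 84.4 CPM in LPDS libraries against 94.98, 89.3 and 91.8 CPM in FBS libraries. The response difference was −1.03 ± 0.19 (edgeR adjusted p = 0.000533). LEF1, a transcription factor of the Wnt pathway, had −0.67 ± 0.17 (edgeR adjusted p = 0.00871). BDNF, a neurotrophin, had −1.03 ± 0.23, NRP1, a semaphorin and VEGF receptor, had −0.76 ± 0.20, and EFNB2, an ephrin, had −0.66 ± 0.19 (edgeR adjusted p = 0.00289, 0.0121 and 0.0178). With SG21 LPDS as replicate 1 alone these were −0.88, −0.61 and −0.47 and none of the 3 passed (edgeR adjusted p = 0.0527, 0.125 and 0.189). That list then had 2 called negative differences and 0 positive ones. EFNB2 also lost its call without SG12 FBS replicate 1 (−0.59) or SG21 FBS replicate 2 (−0.57). Of 4 measured immediate early genes 2 had a called positive difference (IER2 and EGR3) and 1 a negative one (DUSP6). Over all source genes 9.08% were called positive and 12.9% negative. DUSP6, at a mean of 7.34 CPM, had −2.60 ± 0.68 (edgeR adjusted p = 0.00913), and −0.99 with SG21 LPDS as replicate 1 alone. JUNB had −0.10 ± 0.19 (edgeR adjusted p = 0.776). IER2 had 2306, 2570 and 2919 CPM in SG12 LPDS libraries against 693, 659 and 779 CPM in SG12 FBS libraries, and 1742, 2099 and 2247 CPM in SG21 LPDS libraries against 939, 1148 and 1027 CPM in SG21 FBS libraries. It rose in both lines, and by more in SG12 (difference 0.90 ± 0.15, edgeR adjusted p = 0.000164). TWIST1, a mesenchymal transcription factor, had a difference of 1.12 ± 0.25 (edgeR adjusted p = 0.00298), and VIM had 0.39 ± 0.15 (edgeR adjusted p = 0.0673), 0.52 without SG21 LPDS replicate 2 (edgeR adjusted p = 0.0136), 0.48 without SG12 LPDS replicate 1 (edgeR adjusted p = 0.0336) and 0.71 with SG21 LPDS as replicate 1 alone (edgeR adjusted p = 0.000581).

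**Figure D4:**
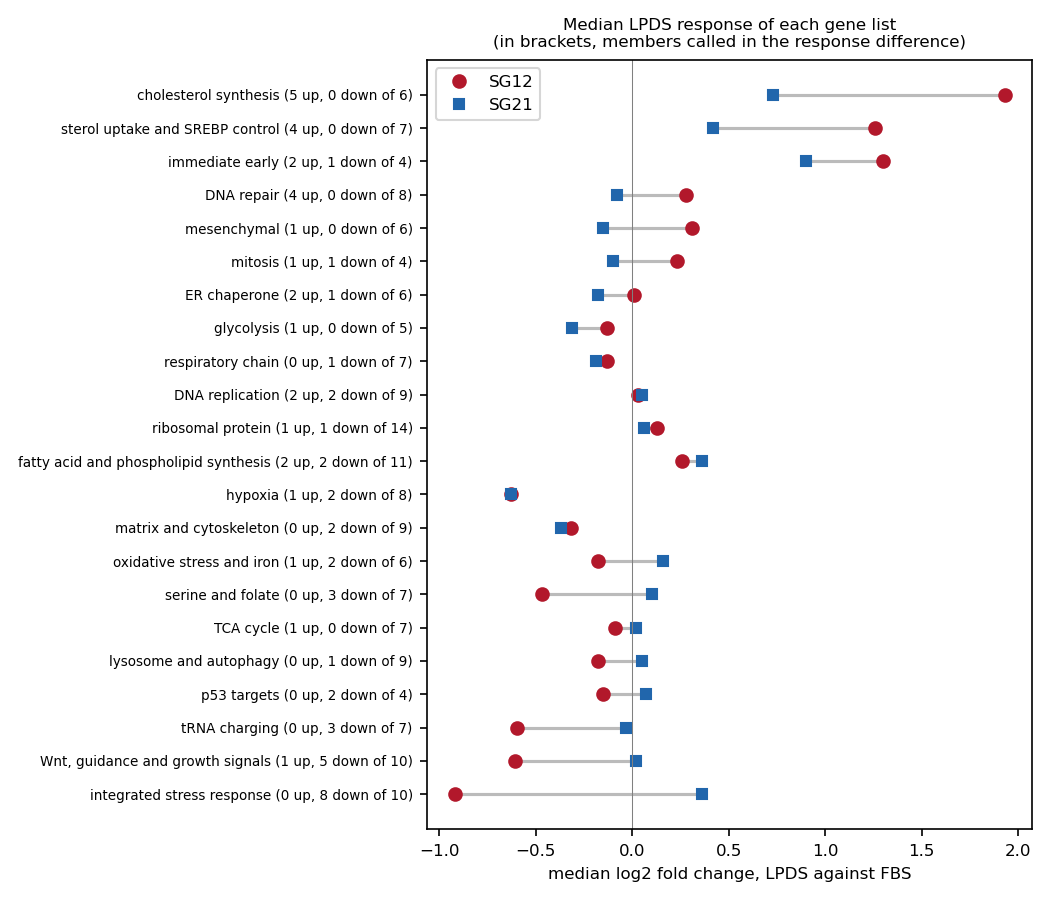
Median LPDS response of the measured members of each gene list with at least 4 of them, in SG12 (circles) and SG21 (squares), on the log2 scale against FBS, with the called members of each list in brackets. The sterol lists have the widest positive gap between the lines (medians of the difference 1.12 and 0.84) and the integrated stress response the widest negative gap (−1.41), while the hypoxia medians lie close together below 0.

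Outside the lists, the largest negative differences among well-measured source genes called with and without SG21 LPDS replicates 2 and 3 came from genes that were highest in SG12 FBS. The SG12 FBS level enters the difference with a minus sign, so this trait is partly built into the choice of genes. SAMD11 (chr1:923928-944581, plus strand), a nuclear protein with a SAM domain read through the NOC2L entry, had 190, 151 and 161 CPM in SG12 LPDS libraries against 936, 974 and 832 CPM in SG12 FBS libraries, and 425, 432 and 439 CPM in SG21 LPDS libraries against 364, 352 and 332 CPM in SG21 FBS libraries. The 3 SG12 FBS libraries were far above the other 9. Its difference was −2.76 ± 0.15 (edgeR adjusted p = 2.01e-13). SNTB1, a syntrophin that anchors membrane proteins, had 46.8, 48.7 and 54.2 CPM in SG12 LPDS libraries against 238, 195 and 184 CPM in SG12 FBS libraries, and 141, 158 and 162 CPM in SG21 LPDS libraries against 114, 125 and 146 CPM in SG21 FBS libraries, a difference of −2.30 ± 0.19 (edgeR adjusted p = 1.65e-09). PYROXD1, a redox enzyme read through RECQL, and TRAK2, an adaptor for mitochondrial transport read through STRADB, had −2.17 ± 0.18 and −1.99 ± 0.20 (edgeR adjusted p = 1.65e-09 and 6.9e-08). CHMP4C, an ESCRT protein of late cell division, and EXOSC8, of the RNA exosome, had −1.77 ± 0.25 and −1.47 ± 0.17 (edgeR adjusted p = 1.93e-05 and 5.66e-07).

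The largest positive differences came in 2 forms. In the first, SG12 was below SG21 in FBS and rose with LPDS. A low SG12 FBS level is likewise partly built into the choice of these genes. FXYD6, a regulator of the sodium pump, had 33.9, 29.9 and 31.9 CPM in SG12 LPDS libraries against 7.76, 11.8 and 8.07 CPM in SG12 FBS libraries. Its SG21 levels were 143, 174 and 194 CPM in LPDS libraries against 146, 162 and 187 CPM in FBS libraries, which overlap. The difference was 1.73 ± 0.25 (edgeR adjusted p = 2.29e-05). MYBPC1, a myosin-binding protein, had 1.68 ± 0.25 (edgeR adjusted p = 2.99e-05), SMTN, smoothelin, had 1.52 ± 0.23 (edgeR adjusted p = 2.99e-05), and WDR90, a centriole protein, had 1.46 ± 0.24 (edgeR adjusted p = 9.92e-05). TUBA1B, a main alpha tubulin whose near-identical paralogs can share reads, had 18470, 16240 and 15690 CPM in SG12 LPDS libraries against 7910, 7858 and 6529 CPM in SG12 FBS libraries, and 30610, 33740 and 32000 CPM in SG21 LPDS libraries against 32620, 31350 and 32500 CPM in SG21 FBS libraries (difference 1.18 ± 0.11, edgeR adjusted p = 3.12e-08). PRDX1, a peroxidase of the cytosol read through MMACHC, followed it at 0.91 ± 0.13 (edgeR adjusted p = 1.43e-05).

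In the second form both lines moved with all 12 libraries, up in SG12 and down in SG21. With all libraries the SG21 responses of ARHGAP33, CDCA3, S100A1, MYH10, HNRNPU and PNN were −0.70, −0.66, −0.93, −0.62, −0.76 and −1.05. With SG21 LPDS as replicate 1 alone they were −0.63, −0.55, −0.55, −0.20, −0.59 and −0.14. The falls of MYH10 and PNN thus came mostly from replicates 2 and 3. With 1 library left in that group, this fit cannot settle whether the falls of the other genes repeat. ARHGAP33, a regulator of small GTPases, had 86.4, 69.5 and 71.9 CPM in SG12 LPDS libraries against 26.8, 34.5 and 46.8 CPM in SG12 FBS libraries, and 98.0, 84.1 and 99.7 CPM in SG21 LPDS libraries against 136, 163 and 157 CPM in SG21 FBS libraries. The groups were apart in each line, and the response difference was 1.78 ± 0.23 (edgeR adjusted p = 4.03e-06). CDCA3, a cell cycle protein read through GNB3, had 70.7, 64.5 and 79.8 CPM in SG12 LPDS libraries against 37.7, 36.8 and 34.7 CPM in SG12 FBS libraries, and 69.8, 64.5 and 60.4 CPM in SG21 LPDS libraries against 86.6, 119 and 102 CPM in SG21 FBS libraries (difference 1.64 ± 0.22, edgeR adjusted p = 5.9e-06). S100A1, a calcium-binding protein read through S100A13, was far higher in SG12 at 213, 234 and 216 CPM in LPDS and 142, 139 and 125 CPM in FBS, against 14.0, 10.1 and 8.25 CPM in SG21 LPDS and 18.9, 21.8 and 20.6 CPM in SG21 FBS. Its difference was 1.63 ± 0.23 (edgeR adjusted p = 1.86e-05). MYH10, a non-muscle myosin, and HNRNPU, a nuclear RNA-binding protein, had 1.47 ± 0.22 and 1.40 ± 0.23 (edgeR adjusted p = 3.68e-05 and 0.000117). TNFAIP8L1, a relative of a TNF-induced protein, had 1.36 ± 0.20 (edgeR adjusted p = 1.93e-05), with an SG21 response of −0.35 that did not pass (edgeR adjusted p = 0.152). PNN, a splicing protein, had 93.2, 39.0 and 17.3 CPM in SG21 LPDS replicates 1, 2 and 3 against 108, 105 and 95.6 CPM in SG21 FBS libraries, and its difference of 1.86 ± 0.42 (edgeR adjusted p = 0.00312) was 0.94 with replicate 1 alone (edgeR adjusted p = 0.0439), 2.64 without replicate 1 and not called in DESeq2 (1.82, adjusted p = 0.0694).

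Some genes passed in SG21 and not in SG12. CEBPA, a transcription factor of differentiation, had 70.4, 67.5 and 72.3 CPM in SG12 LPDS libraries against 91.3, 83.2 and 78.3 CPM in SG12 FBS libraries, and 227, 263 and 239 CPM in SG21 LPDS libraries against 157, 176 and 151 CPM in SG21 FBS libraries. It rose by 0.59 in SG21 (edgeR adjusted p = 0.00309), with a response difference of −0.86 ± 0.17 (edgeR adjusted p = 0.0012). KCNJ8, a potassium channel subunit, rose by 0.67 in SG21 (difference −0.96 ± 0.20, edgeR adjusted p = 0.00137), and AKAP8L, a nuclear anchoring protein, fell by 0.69 (difference 0.91 ± 0.16, edgeR adjusted p = 0.000272). With SG21 LPDS as replicate 1 alone, AKAP8L kept a called response in SG21 (−0.68, edgeR adjusted p = 0.0248), and CEBPA and KCNJ8 did not (0.49 and 0.38, edgeR adjusted p = 0.151 and 0.391).

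**Figure D5:**
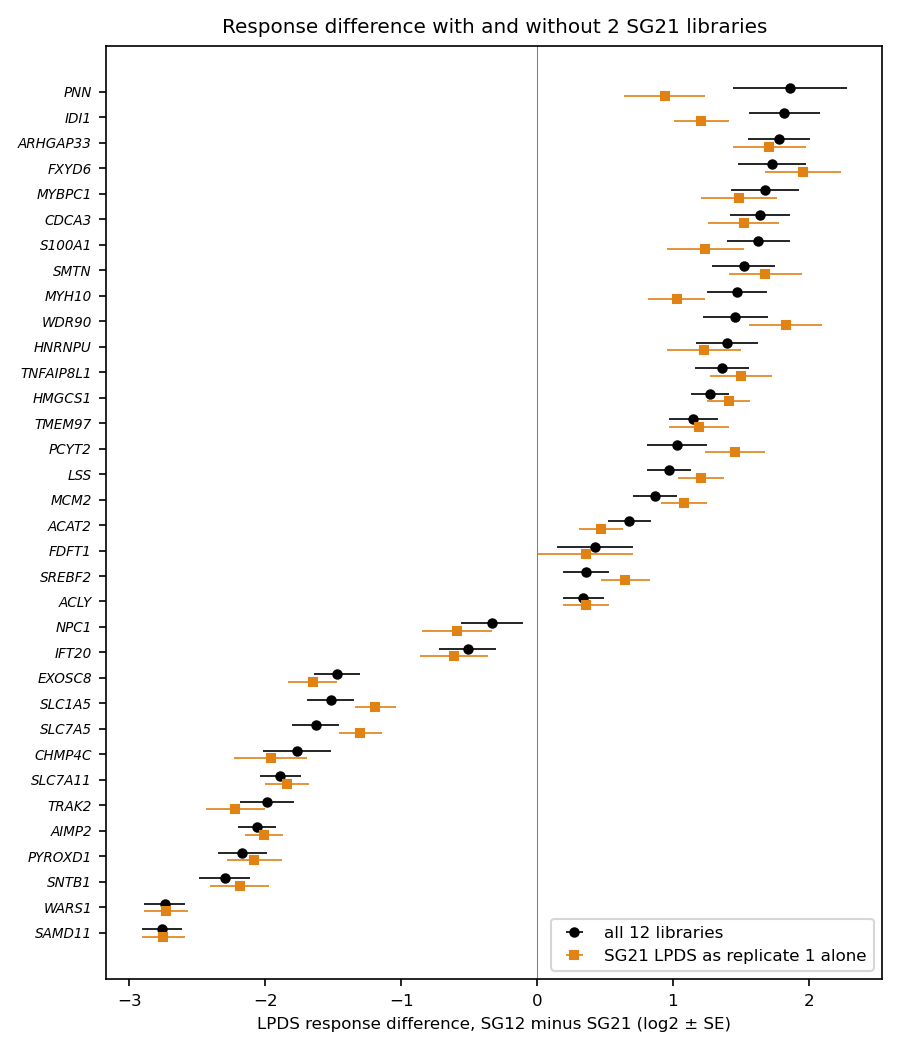
Response difference (log2 ± SE) of genes named for their size or by name, with all 12 libraries (black circles) and with SG21 LPDS as replicate 1 alone (orange squares). WARS1 and SAMD11 stay near −2.74 and −2.76 in both, while IDI1 is at 1.82 and 1.21 and PNN at 1.86 and 0.94.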

How the data were processed

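The members, gene lists and tests were chosen with earlier results of these data known. Per the labels, RNA was prepared with an Illumina stranded total RNA kit that removes ribosomal RNA (Ribo-Zero Plus). Per the submitters' processing notes, bcl2fastq and STAR were used with hg38, and versions, counting program and strand setting are not given in the sources used here. The deposited values are the authors' raw read counts per gene name. Checked on the files, they are whole numbers, and the 5 closing entries stayed out of library sizes (reads on no gene were 94.3% to 94.6% of uniquely aligned reads).

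Counts of the 12 libraries were fitted together in R 4.3.3 with edgeR 4.0.16 (a mean per group, TMM scaling, filterByExpr, 11146 entries kept) and tested with its quasi-likelihood F test, Benjamini-Hochberg adjusted over all entries, at 0.05. The SE is the absolute log2 change over the square root of F. The fit was run on simulated counts with known changes. No simulated library stood apart from its group, so that run does not check the fit for such libraries. CPM uses TMM library sizes. A source gene is the GENCODE 29 gene on the opposite strand that overlaps the exons of an entry by at least 50 bases and holds at least 80% of such overlap. It was used where the entry averaged over 5.36 CPM, a bound that 90% of the 9463 protein-coding entries without an opposite gene stay under, and 1 entry, the highest, stands for each gene. Entries whose own gene probably supplies over 50% of the reads (32) were set aside.

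Named are 16 genes chosen by name, list members that pass (all measured members for cholesterol synthesis), the 12 largest differences each way above 48.3 CPM (the same bound at 99%) that pass with and without SG21 LPDS replicates 2 and 3, and up to 4 genes per response pattern. The text gives part of them, with a few others of the same lists, and some are not reported here. Alternatives were DESeq2 1.42.0 and its size factors, other filters, all 24 libraries, all uniquely aligned reads as library size, a replicate block and each library left out. Replicate numbers did not pair the samples. Depth sets the precision: 2.53 to 3.96 M reads on genes per library.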

Additional observations from a re-analysis of the deposited data

Results flagged for a closer look

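The 1646 entries whose LPDS response differed between SG12 and SG21 were picked out because the difference between the lines was itself tested. Within them are 23 named source genes in which every LPDS library lay apart from every FBS library in each line, in opposite directions. Many named genes were chosen for the size or call of this same difference, so this count is a description. The share over all source genes was not counted.

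Lower in LPDS in SG12 and higher in SG21 were SAMD11 (response difference −2.76), WARS1 (−2.74), PYROXD1 (−2.17), AIMP2 (−2.06), TRAK2 (−1.99), SLC7A11 (−1.89), SLC1A5 (−1.52), ALDH1L2 (−1.47), EXOSC8 (−1.47), MTHFD2 (−1.34), MARS1 (−1.06), SLC6A9 (−1.05), RPL15 (−0.97), KCNJ8 (−0.96), CEBPA (−0.86) and MDM2 (−0.64). Higher in LPDS in SG12 and lower in SG21 were ARHGAP33 (1.78), KIF20A (1.73), CDCA3 (1.64), S100A1 (1.63), MYH10 (1.47), TNFAIP8L1 (1.36) and ALDOC (1.04). All differences are on the log2 scale and passed in edgeR. Not every such gene passed within each line: the SG21 response of SAMD11 was 0.31 (edgeR adjusted p = 0.105) and that of MTHFD2 was 0.26 (edgeR adjusted p = 0.108). Nor did the SG21 responses of EXOSC8, ALDH1L2, MARS1, SLC6A9, RPL15, MDM2, KIF20A and TNFAIP8L1 pass, or the SG12 responses of KCNJ8 and CEBPA.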

How the results depend on the processing

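The response difference was called for 1646 entries and for 1026 with SG21 LPDS as replicate 1 alone, and for 1144 to 2105 when each library was left out in turn. The SG21 response rested most on single libraries: 460 calls became 102 with SG21 LPDS as replicate 1 alone, 230 when SG12 FBS replicate 3 was left out as well (an alternative chosen after seeing the data), 1000, 182 and 240 without SG21 LPDS replicates 1, 2 and 3, and 274, 256 and 217 without SG21 FBS replicates 1, 2 and 3. The line difference in LPDS fell to 1244 calls, and 1553 in the added alternative, against 2337 calls. Entries called in both lines in opposite directions numbered 94 with all libraries, 17 with replicate 1 alone, 143 without SG12 FBS replicate 3, 200, 35 and 52 without SG21 LPDS replicates 1, 2 and 3, and 52, 50 and 44 without SG21 FBS replicates 1, 2 and 3. Entries called in the same direction numbered 148, 51 with replicate 1 alone, 82 in the added alternative, 286, 85 and 90 without SG21 LPDS replicates 1, 2 and 3, and 93 and 85 without SG21 FBS replicates 2 and 3. The 5 cholesterol synthesis and 8 stress response calls kept their number with each library left out. LPCAT3, at 0.02, and VLDLR, at 0.01, changed sign: LPCAT3 to −0.03 with replicate 1 alone, −0.01 with DESeq2 size factors and in DESeq2, −0.11 in the added alternative and −0.06 to 0.06 with 1 library left out, and VLDLR to −0.01 with DESeq2 size factors and in DESeq2, −0.00 with the replicate block and −0.13 to 0.13 with 1 library left out. The cause was not tested. The filter of at least 1 CPM in 3 libraries, planned as stricter, kept more entries (17635) than filterByExpr. VIM, not called at 0.39 with all libraries, was called at 0.43 with no count filter (edgeR adjusted p = 0.00117), at 0.44 with that 1 CPM filter (edgeR adjusted p = 0.0198) and at 0.39 with the replicate block (edgeR adjusted p = 0.048). Same-numbered libraries deviated together no more than others, and the replicate block gave 1630 calls. Entries with few reads, and genes read through short overlaps, are limited by depth.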

Other observations

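The 13 protein-coding entries of the mitochondrial genome carry another difference between the lines. Under their own names, all 13 had a called positive response difference. Over all 11146 tested entries the share called positive was 7.4%. Which mitochondrial strand these reads come from was not tested. MT-ND3 had 154, 143 and 196 CPM in SG12 LPDS libraries against 45.1, 33.2 and 94.0 CPM in SG12 FBS libraries, and 46.6, 23.3 and 41.2 CPM in SG21 LPDS libraries against 134, 136 and 88.0 CPM in SG21 FBS libraries. Its difference was 3.23 ± 0.36 (edgeR adjusted p = 3.76e-07), and that of MT-ATP6 was 3.13 ± 0.36 (edgeR adjusted p = 7.38e-07). SG12 FBS replicate 3, which stands apart in other entries too, was the highest of its group for both. With SG21 LPDS as replicate 1 alone these were 2.87 and 2.75. MT-ATP8, MT-CO2, MT-ND1 and MT-ND6 then missed the threshold, at 2.18, 0.949, 1.13 and 1.41 (edgeR adjusted p = 0.213, 0.19, 0.0791 and 0.167). All 13 entries lie on 1 genome, so they are not independent.

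Among protein-coding entries with no assigned source gene, FGF21, a metabolic hormone and known ATF4 target, had 0.628, 1.68 and 0.328 CPM in SG12 LPDS libraries against 10.9, 11.8 and 9.28 CPM in SG12 FBS libraries. In SG21 its entry had 4.41, 2.24 and 1.13 CPM in LPDS libraries against 0.674, 1.00 and 0.274 CPM in FBS libraries. The response difference was −5.47 ± 0.93 (edgeR adjusted p = 0.000161), and −6.28 without SG12 LPDS replicate 2. RAB7B, a GTPase of late endosomes, had −4.43 ± 0.73 (edgeR adjusted p = 0.000108), and −6.27 without SG12 LPDS replicate 1. Both are fitted values of entries with few reads, so their size is uncertain. Which strand these reads come from was not tested.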
